A study of Mus musculus with 12 samples.

Results

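Adipokines are proteins that fat secretes into blood or into the tissue around it. The group described here held 10 of the 49315 genes in the count table, chosen by symbol alone: Lep (leptin), Adipoq (adiponectin), Retn (resistin), Cfd (complement factor D, also named adipsin), Rbp4 (retinol binding protein 4), Nampt (nicotinamide phosphoribosyltransferase), Apln (apelin), Rarres2 (chemerin), Nrg4 (neuregulin 4) and Fgf21 (fibroblast growth factor 21). RNA of white adipose tissue, epididymal by the study's methods, was sequenced from male littermate mice on a 60% fat diet for 12 weeks, in 4 groups of 3 libraries. The KO mice (Mir181a2b2-/-) lacked the adjacent microRNA genes Mir181a-2 and Mir181b-2 in the whole body, and the flox mice (Mir181a2b2 flox/flox) were controls with both alleles floxed and intact. In each genotype 1 group received methotrexate (MTX), a folate antagonist, by weekly injection at 1 mg/kg and the other its vehicle. The counts hold no usable reads of the microRNA precursors and do not check the deletion, and the same mature microRNAs are also made from a second locus that was left intact. All 12 libraries came from mice on the high-fat diet, so no lean reference was among them, and the age of the mice is not given in the sources used here. The study compared the genotypes and the treatment to ask how the tissue's transcripts depended on the microRNAs and on MTX. The labels number the libraries within a group without naming animals, so the p-values measure the spread between these libraries.

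As background, leptin falls and rises with fat mass and acts on the brain to limit food intake, while adiponectin, although made by the same cells, is typically lower in obesity and sensitizes liver and muscle to insulin. Resistin is made by adipocytes in mice, adipsin activates the alternative complement pathway, and RBP4 carries retinol in blood bound to transthyretin. Chemerin is a chemoattractant and adipogenic ligand, apelin acts on the vasculature and heart, NAMPT makes an NAD precursor, and neuregulin 4 and FGF21 signal to ErbB receptors and to FGF receptors with beta-Klotho.

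The sequences of the deleted microRNAs are shown first, because a microRNA pairs with its targets through its seed, bases 2 to 8, here in capitals. Both mature 5p products carry the same seed (RefSeq, GRCm38.p6, chromosome 2).
miR-181a-5p: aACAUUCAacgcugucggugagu
miR-181b-5p: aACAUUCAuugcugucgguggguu
The reverse complement of this seed, TGAATGT, was found in the longest annotated 3' UTR of 3 of the 10 adipokine genes, Adipoq, Nampt and Nrg4, each at 1 place. The heptamer, or the alternative GAATGTA with an A opposite base 1, stood in 20.9% of the longest 3' UTRs of 20971 genes. Long UTRs hold it more often: among UTRs within 1.25-fold of the gene's own UTR length it stood in 6.8% at the length of Adipoq (434 bases), 39.7% at that of Nampt (2816 bases) and 24.3% at that of Nrg4 (1394 bases). The match is in capitals in the 3 sites below, read 5' to 3' from the GENCODE M21 transcripts, and only the Nrg4 site is followed by the A that makes both heptamers.
Adipoq 3' UTR, chromosome 16: ctgagtgtaTGAATGTctaaagacc
Nampt 3' UTR, chromosome 12: tggttaacaTGAATGTcaaattgag
Nrg4 3' UTR, chromosome 9: atggctattTGAATGTaatatgcct
Of these 3 genes none had a higher mean in KO than in flox tissue that passed the test below. The UTRs of Lep (2695 bases), Retn (710 bases), Cfd (69 bases) and Rbp4 (243 bases) held neither heptamer.

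In GENCODE M21 (GRCm38) the 10 genes are all protein-coding and lie on separate loci: Lep chr6:29060220-29073877 (plus strand), Adipoq chr16:23146536-23158028 (plus strand), Retn chr8:3655770-3660110 (plus strand), Cfd chr10:79890853-79892655 (plus strand), Rbp4 chr19:38116629-38125281 (minus strand), Nampt chr12:32819545-32853349 (plus strand), Apln chrX:48025146-48034853 (minus strand), Rarres2 chr6:48569696-48572789 (minus strand), Nrg4 chr9:55220222-55326844 (minus strand) and Fgf21 chr7:45613886-45615490 (minus strand).

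Depth was similar across the 12 libraries, from 19495310 to 23976469 counts (median 21824170.5), and 18702 genes had enough counts to be tested. All 10 adipokines were among them, although Fgf21 had only 1 to 32 counts per library. Levels are CPM, read counts relative to library size, scaled by the trimmed mean of M values (TMM), and a gene was called where the Benjamini-Hochberg adjusted p of edgeR's quasi-likelihood test was below 0.1 and the fold change at least 1.5. The 14 adipocyte markers other than the adipokines were above 3 counts in every library. The flox vehicle libraries stood apart. Their summed level of 22 epididymis genes was 1873 to 15918 CPM, against 6.17 to 639 CPM with MTX in flox and 2.18 to 19.1 CPM in the 6 KO libraries, and their 11 germ cell genes summed to 207 to 598 CPM, against 2.06 to 14.97 CPM in all others. Macrophage genes rose together in KO tissue under vehicle, with 15 of 15 called higher and sums of 5197 to 9587 CPM against 666 to 1295 CPM. In flox tissue with MTX 15 of 15 were also called higher, beside 8.08% of all genes, with sums of 1037 to 5744 CPM. There only 2 of 15 genes were without overlap, where 10.9% of all genes were higher without overlap. The sum of replicate 4 (1037 CPM) lay within the flox vehicle range. In KO tissue under vehicle, 10 of 11 fibroblast genes and 9 of 11 endothelial genes were also called higher, and 1 fibroblast gene, Dpp4, was called lower. Of the other lists, 4 of 10 mesothelial genes (2 in each direction), 1 of 12 lymphocyte genes (higher), 3 of 8 tested skeletal muscle genes and 1 of 7 brown or beige fat genes (lower) were called in that comparison. Over all 18702 genes tested, 13.9% were called higher and 17.8% lower in KO tissue under vehicle. In bulk tissue, fewer cells of a type and less RNA per cell cannot be told apart.

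Compared per kilobase of exon, the only scale on which levels of different genes can be set side by side, Cfd was highest over the 12 libraries (mean 1659 CPM per kb), followed by Adipoq (1234), Lep (926), Retn (446), Rbp4 (228), Rarres2 (114), Nampt (20.7), Nrg4 (5.12), Apln (3.54) and Fgf21 (0.869). The first place of Cfd over the 12 libraries rested on flox vehicle replicate 1. That library held 8647 CPM per kb, beside 69.1 to 2660 CPM per kb in the others. The order at the top was not the same in all groups: in flox vehicle tissue Cfd came first (3990 ± 4034 CPM per kb, SD, n = 3) ahead of Adipoq (1565 ± 773), while in KO MTX tissue Lep came first (928 ± 446) ahead of Adipoq (608 ± 295) and then Cfd (210 ± 123). Within flox vehicle and within KO MTX tissue, each gene just named overlapped in range with the next one named. The highest KO MTX library of Cfd (297 CPM per kb) was below the lowest of Lep (414 CPM per kb). The 10 genes together took 0.24% to 1.505% of a library's counts. They also differed in how much they varied: between the lowest and the highest library, Cfd spanned 125-fold, Retn 39.5-fold, Rbp4 22.3-fold and Adipoq 9.64-fold, while Lep spanned 4.01-fold, Rarres2 2.67-fold and Nampt 1.74-fold.

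**Figure D1:**
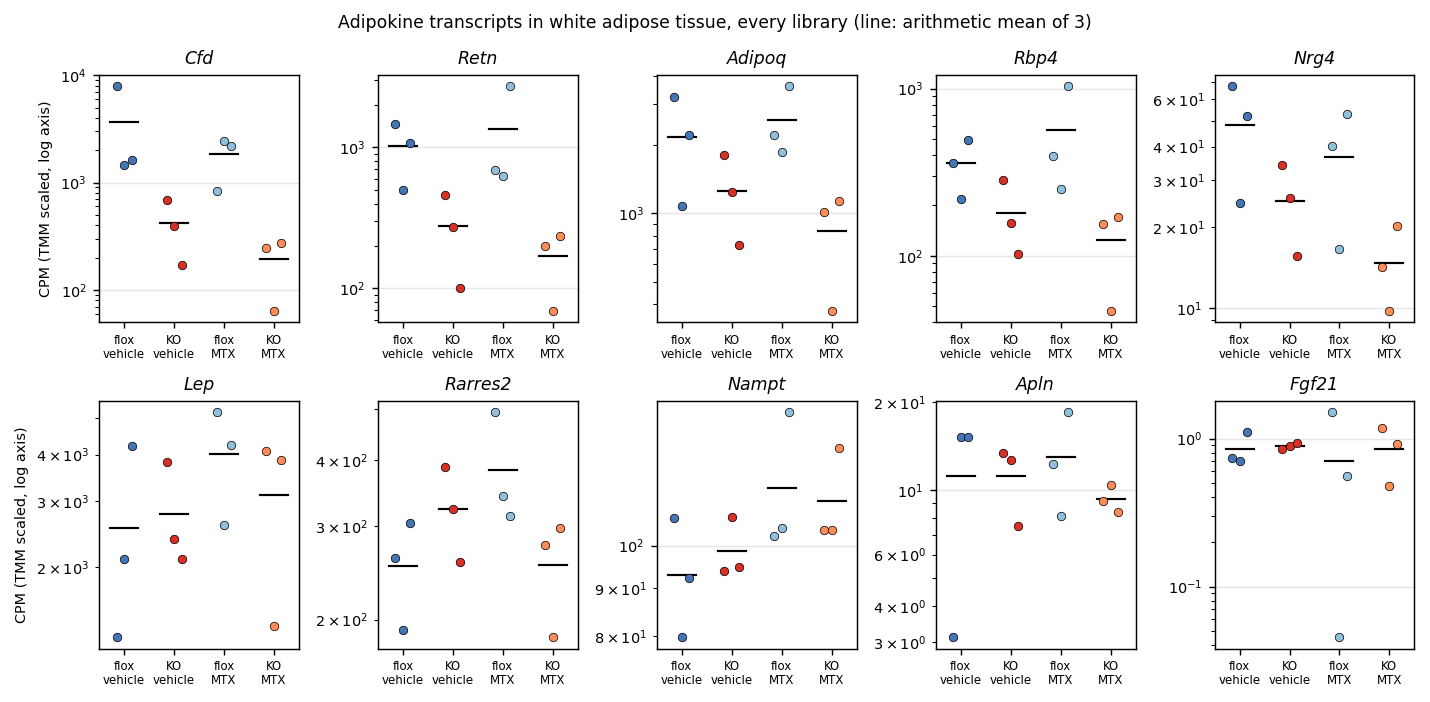
CPM of each adipokine in every library, on a log axis that differs between panels, with the 4 groups on the x axis, 1 point per library and a line at the arithmetic mean of 3. Cfd and Retn lie lower in all 6 KO libraries than in any flox library, whereas over both treatments together the genotypes overlap for every other gene.

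The genotypes were compared first under vehicle. Cfd and Retn fell in KO tissue, and none of the other 8 adipokines was called in either direction. Cfd, the serine protease that starts the alternative complement pathway, had 7972 CPM in replicate 1 of flox vehicle, 1445 in replicate 3 and 1618 in replicate 4, against 693, 395 and 172 CPM in the KO vehicle replicates 1 to 3. All 3 KO libraries were below all 3 flox libraries, and flox replicate 1 was far above its group. The log2 fold change was -3.13 (SE 0.83, adjusted p = 0.0167, edgeR with Benjamini-Hochberg adjustment), an 8.76-fold lower mean. Without flox vehicle replicate 1 it was -1.86 (adjusted p = 0.0762, edgeR with Benjamini-Hochberg adjustment), so the size of the Cfd difference, but not its call, rested on that library.

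Retn, which encodes the insulin-antagonizing hormone resistin, was at 1460, 503 and 1084 CPM in flox vehicle tissue and at 462, 274 and 100 CPM in KO vehicle tissue. The groups did not overlap, but the highest KO library lay close to the lowest flox library. The log2 fold change was -1.87 (SE 0.73, adjusted p = 0.0766, edgeR with Benjamini-Hochberg adjustment). The Retn call was lost when any of 4 libraries was left out: adjusted p (edgeR, Benjamini-Hochberg) was 0.201 without flox replicate 1, 0.122 without flox replicate 4, 0.163 without KO replicate 2 and 0.218 without KO replicate 3. Being lower in KO tissue under vehicle was common, since 17.8% of the 18702 genes were called lower and 31.7% called in either direction, and 25.3% had all KO libraries below all flox libraries. With 2 of 10 called lower, the adipokines were near that background. Their median log2 fold change was -0.39, beside -0.06 over all genes and -0.40 over the 14 adipocyte markers, of which 2 were called lower.

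Adipoq, Rbp4 and Nrg4 had lower means in KO vehicle tissue without passing the test. Adipoq was at 3214, 1079 and 2191 CPM in flox and at 1795, 1241 and 725 CPM in KO tissue (log2 fold change -0.79, SE 0.51). Rbp4 was at 360, 219 and 493 CPM in flox and at 283, 157 and 103 CPM in KO tissue (-0.98, SE 0.61). Nrg4 was at 67.5, 24.7 and 52.0 CPM in flox and at 34.2, 25.6 and 15.6 CPM in KO tissue (-0.93, SE 0.47, adjusted p = 0.161), and it was called without flox vehicle replicate 3 (-1.25, adjusted p = 0.0833) or without flox MTX replicate 2 (adjusted p = 0.0977, all edgeR with Benjamini-Hochberg adjustment). In each of these genes 1 flox library, replicate 3, lay within the KO range. It was also the library with the highest epididymis sum (15918 CPM), whose part in these values was not tested.

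Lep was at 1296, 2107 and 4209 CPM in flox vehicle tissue and at 3816, 2383 and 2098 CPM in KO vehicle tissue, which overlapped throughout (log2 fold change 0.12, SE 0.51). The direction was not stable, at -0.19 without flox vehicle replicate 1 and -0.15 without replicate 1 of KO vehicle. Flox replicate 1, the highest of its group in Cfd, Retn, Adipoq and Nrg4, was its lowest in Lep and in Apln, where it held 3.12 CPM against 15.2 and 15.1 CPM in the other 2 flox libraries. Rarres2 was at 261, 191 and 304 CPM in flox and 389, 324 and 257 CPM in KO vehicle tissue (0.36, SE 0.26). Its value carries a limit: 892 exon bases, 33.6% of its exon length, overlap Lrrc61 on the opposite strand, and the strand setting of the counting is not stated. Nrg4 shares 6.06% of its exon bases with Fbxo22 in the same way. Nampt means differed little (93.0 ± 13.7 in flox, 98.7 ± 7.47 CPM in KO, SD, n = 3), as did those of Apln (11.2 ± 6.95 and 11.1 ± 3.19 CPM) and Fgf21 (0.850 ± 0.223 and 0.893 ± 0.0406 CPM).

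With MTX, the same 5 adipokines had the lowest KO means relative to flox, and none was called by edgeR, where 0% of all genes passed (lowest adjusted p 0.104 over all genes, edgeR with Benjamini-Hochberg adjustment, with 4574 genes at an unadjusted p under 0.05). Cfd was at 836, 2452 and 2194 CPM in flox MTX replicates 1, 2 and 4 and at 244, 63.7 and 274 CPM in KO MTX replicates 2, 3 and 4. The groups were fully apart, with a log2 fold change of -3.24 (SE 0.84, adjusted p = 0.104, edgeR with Benjamini-Hochberg adjustment). Retn was at 691, 628 and 2737 CPM in flox and at 201, 69.2 and 237 CPM in KO tissue, a log2 fold change of -3.00 (SE 0.76). Flox MTX replicate 4 was the high library here, and the KO libraries were all below the lowest flox value.

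Rbp4 was at 396, 253 and 1041 CPM in flox MTX tissue and at 154, 46.7 and 171 CPM in KO MTX tissue (log2 fold change -2.18, SE 0.63). Adipoq, at 2207, 1858 and 3612 CPM in flox and 1015, 375 and 1130 CPM in KO tissue, had a log2 fold change of -1.61 (SE 0.52). Both were without overlap between genotypes. Nrg4 overlapped, at 40.2, 16.6 and 52.9 CPM in flox and 14.2, 9.74 and 20.2 CPM in KO tissue (-1.31, SE 0.48). Rarres2 was at 494, 342 and 314 CPM in flox MTX tissue and 277, 185 and 298 CPM in KO MTX tissue (-0.60, SE 0.26). KO MTX replicate 3 was the lowest of the 12 libraries for Cfd, Retn, Adipoq, Rbp4, Nrg4 and Rarres2, and it also had the lowest adipocyte marker sum (18739 CPM) and the highest macrophage sum (10743 CPM), whose part was not tested.

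In all, 5 of 10 adipokines (Cfd, Retn, Rbp4, Adipoq and Rarres2) had all KO MTX libraries below all flox MTX libraries, where 12.1% of all genes did, and 6 of 10 were at an unadjusted p under 0.05. The median log2 fold change of the adipokines was -0.95, that of the adipocyte markers -1.16, and that of all genes -0.04. The absence of calls depended on the settings. DESeq2 called 5 adipokines lower (Adipoq, Retn, Cfd, Rbp4 and Nrg4), with 14.8% of all genes called. Without flox MTX replicate 2, edgeR called the same 5, with 20.8% of the genes tested called, and without flox vehicle replicate 3, which is not in the comparison but enters the shared dispersion, it called Retn, Cfd and Rbp4, with 5.4% of the genes tested called. Lep was at 5198, 2585 and 4252 CPM in flox and 4084, 1389 and 3867 CPM in KO MTX tissue, overlapping again.

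Averaging the genotype difference over vehicle and MTX, a comparison added after the values were seen, set 6 KO against 6 flox libraries. Cfd, Retn, Rbp4, Adipoq and Nrg4 fell in KO tissue, while Lep, Rarres2, Nampt, Apln and Fgf21 were not called. The averaged log2 fold changes were -3.18 for Cfd (SE 0.59, adjusted p = 0.00351), -2.43 for Retn (SE 0.53, adjusted p = 0.00658), -1.58 for Rbp4 (SE 0.43, adjusted p = 0.0185), -1.20 for Adipoq (SE 0.36, adjusted p = 0.0283) and -1.12 for Nrg4 (SE 0.34, adjusted p = 0.027), all from edgeR with Benjamini-Hochberg adjustment. In this average 16% of all genes were called lower. Cfd and Retn were lower in every KO than in every flox library, as were 2.87% of all genes. The same 5 genes were called when any 1 library was left out. Of the 14 adipocyte markers 8 were called lower, with a median of -0.80 beside -0.68 for the adipokines and -0.08 for all genes.

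**Figure D2:**
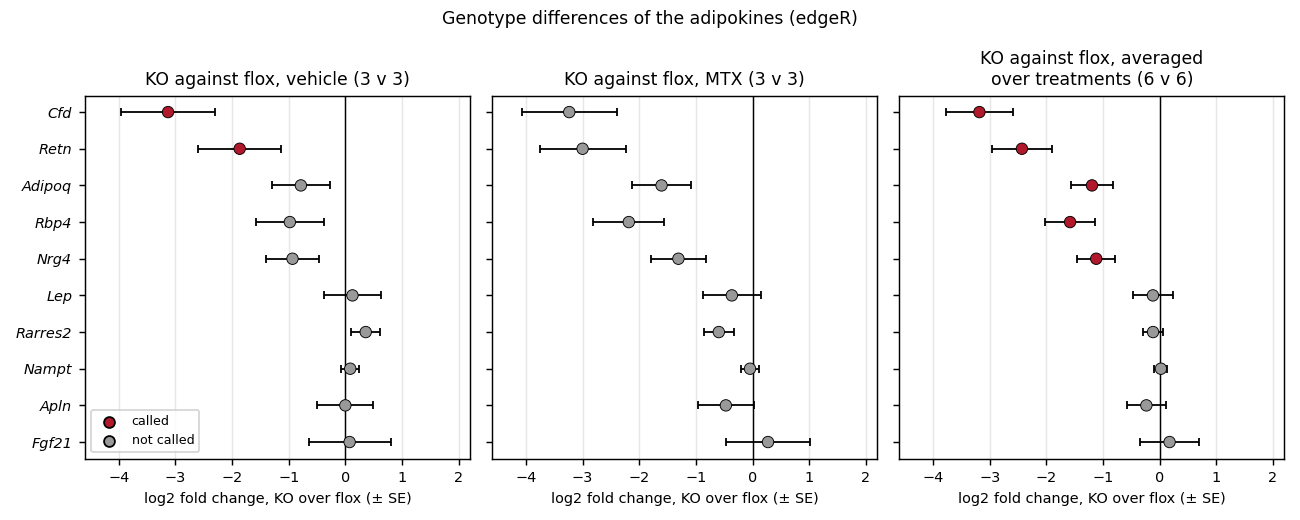
Log2 fold changes of KO over flox (x axis, ± SE from edgeR) for the 10 adipokines under vehicle, under MTX and averaged over both treatments, with called genes in red. Cfd and Retn are called under vehicle, none under MTX, and 5 genes in the average, all to the left of 0.

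Because adipocyte markers were themselves lower in KO tissue in the average, each adipokine was also expressed relative to the summed counts of the 14 markers in the same library, a ratio that does not depend on library scaling. The marker sum, to which the fatty acid carrier Fabp4 gave most, was 24341 to 50558 CPM in flox vehicle, 29492 to 44520 CPM in KO vehicle, 34489 to 74349 CPM in flox MTX and 18739 to 35784 CPM in KO MTX tissue, and the genotypes overlapped under both treatments. Relative to this sum Cfd was 6.004-fold lower in KO tissue, averaged over both treatments, Retn 3.69-fold, Rbp4 2.08-fold, Adipoq 1.62-fold and Nrg4 1.44-fold lower. The sum moved less than the median marker did. Its log2 difference was -0.11 under vehicle and -0.94 under MTX, against median log2 fold changes of -0.40 and -1.16 over the 14 markers. The size of these ratios therefore depends on how the markers are summarized. The 2-sided exact permutation p, over the 400 arrangements that keep the treatments apart, was 0.005 for each of Cfd, Retn, Rbp4 and Adipoq, the smallest these arrangements can give, and 0.015 for Nrg4. In these 4 genes every KO library was below every flox library under vehicle and again under MTX, while Nrg4 was without overlap under vehicle only. The share of all genes that separate on this ratio scale is not given here. On the CPM scale 25.3% of all genes were lower without overlap under vehicle and 12.1% under MTX.

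The other 5 adipokines were higher relative to the markers in KO tissue, by 1.34-fold for Lep (exact permutation p = 0.17), 1.33-fold for Rarres2 (p = 0.06), 1.47-fold for Nampt (p = 0.075), 1.38-fold for Apln (p = 0.39) and 2.30-fold for Fgf21 (p = 0.075), none of them past 0.05. These are 11 ratios tested together, counting that of Lep to Adipoq below, and the averaged form of the test was added after the values were seen. Within 1 treatment the smallest exact permutation p for 3 against 3 libraries is 0.1. Set against the median of the markers instead of their sum, the averaged log2 difference of Nrg4 was -0.26 (exact permutation p = 0.105) instead of -0.53. Under MTX alone Fgf21 was above in all 3 KO libraries, against a flox group in which 1 library held a single count. With MTX in flox tissue, Nrg4 relative to the markers was lower in all 3 libraries than in any vehicle library (log2 difference -0.95, exact permutation p = 0.1).

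**Figure D3:**
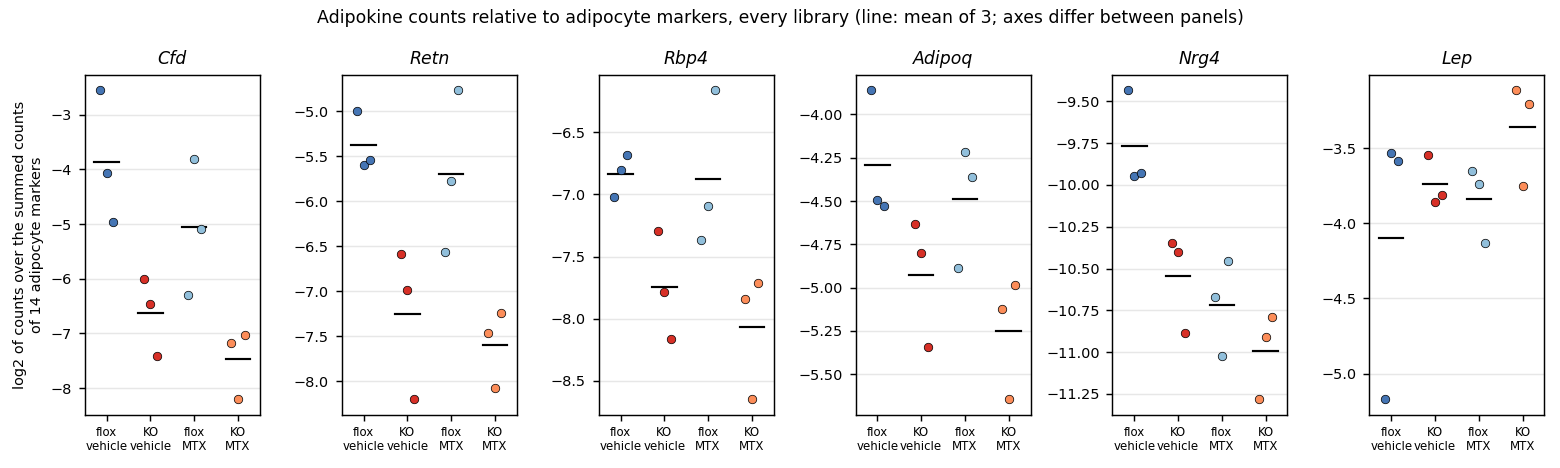
Log2 of each adipokine's counts over the summed counts of 14 adipocyte markers (y axis, range differs between panels) in every library of the 4 groups, with a line at the mean of 3. KO points lie below flox points of the same treatment for Cfd, Retn, Rbp4 and Adipoq, and overlap them for Lep.

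Leptin and adiponectin, both products of the adipocyte, are often read as a ratio. The ratio here is of counts not scaled by exon length (3354 bases in Lep, 1381 in Adipoq). It can be compared between libraries but does not tell which gene was higher. The ratio of Lep to Adipoq counts was 0.403, 1.95 and 1.92 in flox vehicle replicates 1, 3 and 4 and 2.13, 1.92 and 2.89 in KO vehicle replicates 1, 2 and 3. In flox MTX replicates 1, 2 and 4 it read 2.36, 1.39 and 1.18, and it reached 4.02, 3.71 and 3.42 in KO MTX replicates 2, 3 and 4. All KO MTX libraries were above all libraries of the other 3 groups. Under vehicle the genotypes overlapped, and the difference was carried by flox replicate 1: the log2 difference was 0.99 with that library and 0.23 without it (exact permutation p = 0.3 with it). Under MTX the ratio was 2.36-fold higher in KO tissue (exact permutation p = 0.1, the smallest 3 against 3 can give). Averaged over both treatments it was 2.17-fold higher (stratified exact permutation p = 0.015), and without flox vehicle replicate 1 the averaged log2 difference was 0.74 instead of 1.12 (p = 0.035). With MTX against vehicle the ratio was 1.63-fold higher in KO tissue, without overlap (exact permutation p = 0.1), and overlapped in flox tissue.

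**Figure D4:**
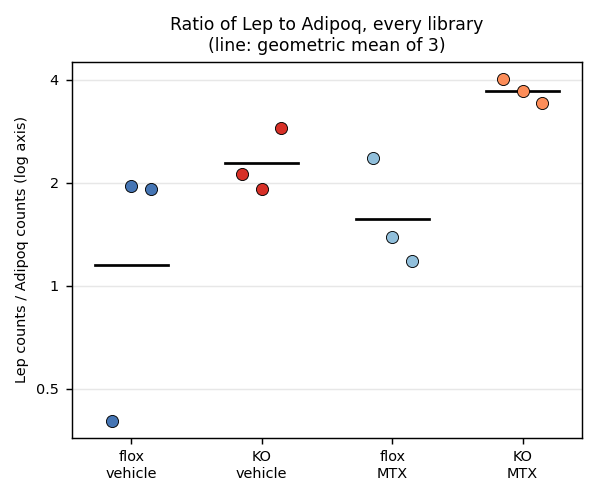
Ratio of Lep counts to Adipoq counts in each library (y axis, log scale) for the 4 groups, with a line at the geometric mean of 3. The 3 KO MTX libraries sit at 3.42 to 4.02, above the other 9, and flox vehicle replicate 1 is lowest at 0.403.

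MTX itself was compared with vehicle within each genotype. None of the 10 adipokines was called in flox tissue, where 24.2% of all genes were, and none in KO tissue, where edgeR called 0% of genes (1492 genes at an unadjusted p under 0.05). The chemerin gene Rarres2 came nearest, with all 3 flox MTX libraries (494, 342 and 314 CPM) above all 3 flox vehicle libraries (261, 191 and 304 CPM), as for 10.9% of all genes. Its log2 fold change was 0.60 (SE 0.26, adjusted p = 0.127, edgeR with Benjamini-Hochberg adjustment). It was called by DESeq2 (adjusted p = 0.0865) and by edgeR without flox vehicle replicate 4 (adjusted p = 0.0759), replicate 4 of flox MTX (0.0958) or KO MTX replicate 3 (0.0999), all with Benjamini-Hochberg adjustment. In KO tissue Rarres2 was at 389, 324 and 257 CPM with vehicle and 277, 185 and 298 CPM with MTX. The interaction of genotype and MTX for Rarres2 was -0.95 (SE 0.37, unadjusted p = 0.0248, adjusted p = 0.265, edgeR with Benjamini-Hochberg adjustment), so the opposite directions in the 2 genotypes did not pass the test. No adipokine was called in the interaction, where 1% of all genes were.

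Nampt means were higher with MTX in both genotypes, 115 ± 20.6 against 93.0 ± 13.7 CPM in flox and 112 ± 13.6 against 98.7 ± 7.47 CPM in KO tissue (SD, n = 3), a difference that was not called. Cfd means were lower with MTX in both, 1827 ± 868 against 3679 ± 3719 CPM in flox and 194 ± 114 against 420 ± 261 CPM in KO tissue, within the spread of the libraries. In flox tissue the lower mean rested on vehicle replicate 1 (7972 CPM). Vehicle replicates 3 and 4 (1445 and 1618 CPM) lay within the flox MTX range of 836 to 2452 CPM. Nrg4 was at 14.7 ± 5.26 CPM in KO MTX against 25.2 ± 9.33 CPM in KO vehicle tissue (log2 fold change -0.77, SE 0.48, not called). Fgf21 was at 1.51, 0.0454 and 0.562 CPM in flox MTX tissue, where 1 library held a single count, and at 0.476 to 1.17 CPM in the KO MTX libraries. Averaged over genotypes, 0 of 10 adipokines were called for MTX by edgeR (0 at an unadjusted p under 0.05) and 0 by DESeq2, where edgeR called 14.5% of genes.

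Across the 12 libraries, the 5 genes lower in KO tissue varied together. As a description over libraries that share genotype, treatment and tissue composition, Pearson's r of log2 CPM was 0.957 between Adipoq and Retn, 0.961 between Retn and Rbp4, 0.95 between Adipoq and Rbp4, 0.91 between Retn and Cfd and 0.891 between Adipoq and Nrg4. The 10 pairs among these 5 ranged from 0.794 (Cfd and Nrg4) to 0.961, and after each group's mean was removed from 0.521 to 0.94. Lep had r of 0.395 to Adipoq, 0.535 to Rbp4 and 0.0317 to Cfd, and its highest r among the adipokines was to Rarres2 (0.706). After each group's mean was removed, r of Lep was 0.715 to Rbp4, within the range of the 5, and 0.0558 to Cfd. The adipocyte marker sum had r of 0.897 with Rbp4, 0.888 with Adipoq, 0.807 with Nrg4, 0.801 with Retn, 0.652 with Lep and 0.583 with Cfd. The macrophage sum had r of -0.811 with Retn, -0.802 with Cfd and 0.00421 with Lep, and its part in these levels was not tested.

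For each adipokine the genes most like it over the 12 libraries were named by Pearson's r, with no test. For Adipoq these were Lipe, the hormone-sensitive lipase (r = 0.99), Proca1 (0.984) and Ddt (0.979). For Retn they were Slc2a4, the insulin-regulated glucose transporter GLUT4 (0.995), Adhfe1 (0.989) and Aoc3 (0.988). Lipe and Slc2a4 are themselves among the 14 adipocyte markers summed above. Rbp4 was close to Gstz1 (0.988) and Rbpms2 (0.987), Nrg4 to Aox1 (0.981) and Lipt1 (0.974), and Cfd to Slc25a23 (0.968), Nnat (0.968) and Cenpv (0.967). Lep was closest to Wfdc21 (0.971), Pde7a (0.969) and Fgf13 (0.965), and Rarres2 to Sod3, the extracellular superoxide dismutase (0.948), C1rl (0.935) and Fcor (0.922). For Nampt, Apln and Fgf21 the highest values were 0.903 (Dapk1), 0.827 (Unc50) and 0.894 (Lpar3), and these fell to 0.719, 0.592 and 0.719 without the 2 libraries farthest from the median, so they rested in part on those.

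The receptors, carriers and nearest partners of the adipokines held 34 genes, 33 of them tested. Under vehicle 11 rose and 5 fell in KO tissue, where 13.9% and 17.8% of all genes were called higher and lower, and their median log2 fold change was 0.23. The RBP4 receptors split: the liver-type receptor Rbpr2 (Stra6l) rose from 0.780, 0.354 and 1.29 CPM in flox to 7.05, 8.71 and 14.6 CPM in KO vehicle tissue (log2 fold change 3.65, adjusted p = 0.00794, edgeR with Benjamini-Hochberg adjustment), whereas Stra6 fell from 1.04, 0.668 and 1.38 CPM to 0.101, 0.127 and 0 CPM. Stra6 rested on 71 counts in flox and 5 in KO libraries, a 13.1-fold ratio with a 95% counting interval of 5.37 to 41.6. Transthyretin (Ttr), the blood carrier of RBP4, had at most 20 counts and was not tested.

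Of the complement genes that act with adipsin, C3 and C3ar1 rose while Cfd itself fell, and Cfb, which encodes the substrate that adipsin cleaves and was singled out after its values were seen, was not called (adjusted p = 0.35, edgeR with Benjamini-Hochberg adjustment). C3, the protein that the alternative pathway cleaves, was at 679, 351 and 681 CPM in flox and 1627, 1643 and 1482 CPM in KO vehicle tissue (1.47, adjusted p = 0.0205, edgeR with Benjamini-Hochberg adjustment). Its anaphylatoxin receptor C3ar1 was at 18.5, 13.0 and 20.9 CPM against 128, 165 and 257 CPM (3.39, adjusted p = 0.00483, edgeR with Benjamini-Hochberg adjustment). The genotypes did not overlap in C3 or C3ar1. C3ar1 is also a macrophage gene, and the macrophage sums given above moved with it. Their part was not tested.

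Among hormone receptors, Lepr was at 1.39, 2.08 and 1.52 CPM in flox and 3.02, 4.44 and 2.34 CPM in KO vehicle tissue, apart but not called (adjusted p = 0.142, edgeR with Benjamini-Hochberg adjustment). The adiponectin receptors Adipor1 and Adipor2 were not called, with Adipor1 at 152 to 165 CPM in all 6 vehicle libraries, while the adiponectin-binding cadherin Cdh13 rose (0.89, adjusted p = 0.0656, edgeR with Benjamini-Hochberg adjustment). The apelin receptor Aplnr rose (1.18, adjusted p = 0.0849, edgeR with Benjamini-Hochberg adjustment) from 9.84, 32.4 and 26.1 CPM to 51.5, 65.8 and 37.7 CPM, and the chemerin receptor Cmklr1 was not called. The Cdh13 call did not survive the removal of any 1 flox vehicle library or of replicate 1 or 2 of KO vehicle (adjusted p 0.108 to 0.163), and that of Aplnr the removal of replicate 1 or 4 of flox vehicle, 1 or 2 of KO vehicle, or 2 or 4 of KO MTX (adjusted p 0.101 to 0.214, both edgeR with Benjamini-Hochberg adjustment). The FGF21 co-receptor Klb had a lower mean (-1.21, adjusted p = 0.115, edgeR with Benjamini-Hochberg adjustment) and Fgfr1 was not called.

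The neuregulin receptors Erbb3 and Erbb4 fell, and both were highest in the flox vehicle libraries, as the epididymis genes were. Erbb3 read 45.8 (replicate 1), 103 (replicate 3) and 19.8 CPM (replicate 4) among flox vehicle libraries, in the order of their epididymis sums of 5728, 15918 and 1873 CPM, and at 2.68 to 6.94 CPM in all 9 other libraries (-3.82 for KO against flox, adjusted p = 0.00307, edgeR with Benjamini-Hochberg adjustment). Erbb4 was at 1.26, 2.04 and 1.75 CPM against 0.151, 0.212 and 0 CPM (119 against 8 counts, 13.7-fold, 95% counting interval 6.75 to 32.6), and its call was lost with the replicate block (adjusted p = 0.116, edgeR with Benjamini-Hochberg adjustment). Within flox vehicle Erbb4 did not follow the order of the epididymis sums, since replicate 4 was above replicate 1. The part of the epididymis genes in these receptor values was not tested. With flox vehicle replicates 1 and 3 left out, a choice made after the data were seen, 2 of the 33 genes were called and none of the adipokines, with 7.07% of the genes tested called. The 1 flox vehicle library that then remained was assumed to vary like the other groups.

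**Figure D5:**
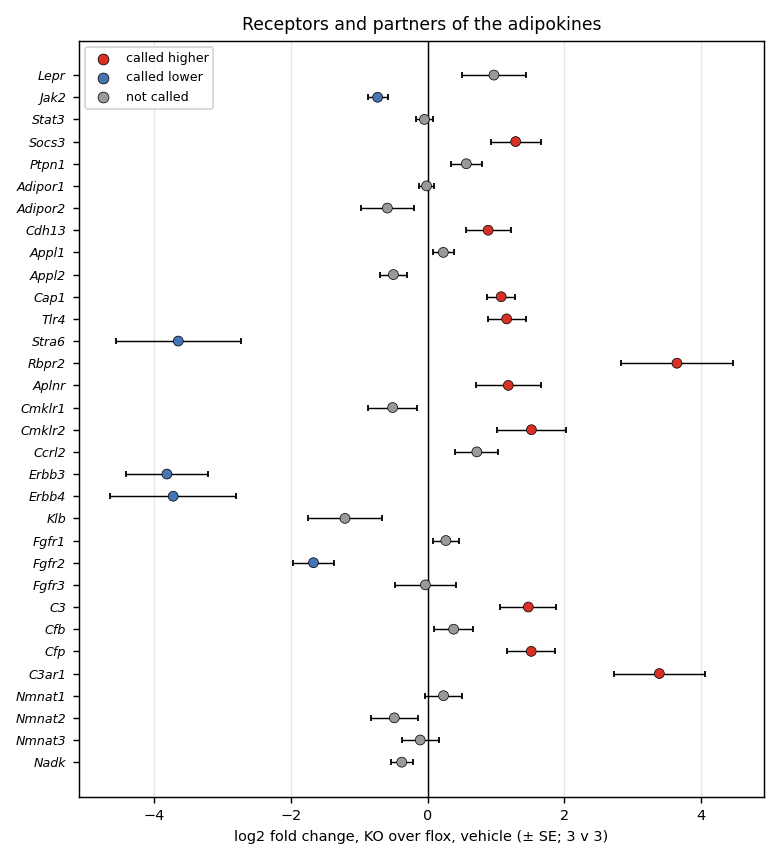
Log2 fold change of KO over flox under vehicle (x axis, ± SE from edgeR, 3 against 3 libraries) for 32 of the 33 tested receptors and partners of the adipokines, red where called higher, blue where called lower and grey where not called. Rbpr2 and C3ar1 lie farthest to the right, and Erbb3, Erbb4 and Stra6 farthest to the left.

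Genes for the transcription and secretion of adipokines held 22 members, of which 2 rose and 2 fell under vehicle, beside 13.9% and 17.8% of all genes. Leaving out KO vehicle replicate 1 left 2 calls. Srebf1, the lipogenic transcription factor, fell from 476, 353 and 348 CPM to 165, 137 and 113 CPM (-1.50, adjusted p = 0.00907, edgeR with Benjamini-Hochberg adjustment), and so did the peptidase gene Dpp4 (-0.96). Cebpb and Fap rose (0.65 and 0.86). The calls for Cebpb and Fap were lost without some single libraries, Cebpb without flox replicate 1 or 3 or KO replicate 1 or 3 (adjusted p 0.133, 0.181, 0.163 and 0.115, edgeR with Benjamini-Hochberg adjustment) and Fap without flox replicate 1 (log2 fold change 0.58) or KO replicate 1 (adjusted p = 0.1, edgeR with Benjamini-Hochberg adjustment). Pparg and Cebpa, the main regulators of adipocyte genes, were not called, at 112, 99.9 and 164 CPM in flox and 126, 105 and 90.1 CPM in KO vehicle tissue for Pparg. The median over the 22 genes was -0.20.

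Of 42 other proteins secreted by fat, 41 were in the table and 38 tested, and 12 rose and 3 fell in KO vehicle tissue (median log2 fold change 0.60), beside 13.9% and 17.8% of all genes. The cytokine genes Il10 (0.347, 0.118 and 0.0922 CPM in flox against 0.805, 1.69 and 2.34 CPM in KO, 3.08), Spp1, the osteopontin gene (2.67), and Tnf (2.38) rose, where macrophage genes rose as well. The Spp1 call (adjusted p = 0.0687) was lost without flox replicate 3 or 4 or KO replicate 3 (adjusted p 0.157, 0.124 and 0.213, all edgeR with Benjamini-Hochberg adjustment). Agt, the angiotensinogen gene, fell from 348, 110 and 142 CPM to 44.8, 41.3 and 23.6 CPM (-2.45), Vegfa fell from 214, 123 and 158 CPM to 83.6, 67.5 and 55.5 CPM (-1.26), and Cxcl5 fell from 29 counts over 3 flox libraries to 0, at least 8.93-fold lower against a floor of 3 counts over the group. Between KO and flox tissue under MTX, none of the 3 lists had a called gene (edgeR, 11, 7 and 10 genes at an unadjusted p under 0.05 and 8, 7 and 9 called by DESeq2, in the order receptors, secretion and other secreted proteins).

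MTX in flox tissue moved 12 of the 33 receptor and partner genes (7 higher, 5 lower), where 8.08% of all genes were called higher and 16.1% lower. The complement gene C3 rose (1.93), at 2113, 3382 and 1021 CPM, and Socs3, the leptin signalling inhibitor, rose (1.04). Erbb3 (-3.61), Erbb4 (-3.35) and Fgfr3 (-2.28) fell, with the epididymis sums again far lower than in flox vehicle tissue. Fgfr3 was at 7.61 to 18.7 CPM in flox vehicle and 10.3 to 13.8 CPM in KO vehicle tissue. The epididymis sums of KO vehicle tissue were far lower as well, and their part in these receptor values was not tested. Cebpb (0.71) and Fap (0.76) rose among 22 secretion genes, and Il10 (2.02), Tnf (1.87) and Fstl1 (1.07) were among 7 of 38 other secreted proteins that rose. Lymphocyte genes rose with them, 9 of 12 called higher, with sums of 367 to 4640 CPM against 41.6 to 335 CPM under vehicle, without overlap. Flox MTX replicate 2 held the highest macrophage sum (5744 CPM) and the highest lymphocyte sum (4640 CPM) of its group. The part of these cells in the values of C3, Socs3, Il10 and Tnf was not tested. The calls of this comparison depended on single libraries. Without flox vehicle replicate 3 the receptor list had 6 calls, the secretion list 0 and the other secreted list 1, and the calls of Socs3, Erbb4, Cebpb, Fap, Il10, Tnf and Fstl1 were lost (adjusted p 0.109 to 0.215, edgeR with Benjamini-Hochberg adjustment). Removing replicate 4 of flox vehicle ended the call of Socs3 (adjusted p = 0.112), and removing replicate 1 that of Cebpb (0.133). Among the flox MTX libraries, replicate 2 carried the calls of Socs3 (0.231 when removed) and Tnf (0.131), replicate 1 that of Il10 (0.122) and replicate 4 that of Cebpb (0.196, all edgeR with Benjamini-Hochberg adjustment). Fap was not called after the removal of replicate 1 of either flox group or of any 1 KO library (adjusted p 0.103 to 0.257, edgeR with Benjamini-Hochberg adjustment). The other secreted list had 11 calls after removal of replicate 4 of flox vehicle, and 4 or 13 after removal of replicate 1 or 4 of flox MTX. The secretion list had 0 after removal of replicate 1 of flox vehicle, and 1 after that of replicate 1 or 2 of KO vehicle or any KO MTX library. In KO tissue no gene of the 3 lists was called for MTX by edgeR (3, 2 and 4 genes at an unadjusted p under 0.05).

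The promoters of the 5 genes lower in KO tissue are shown with that of Lep, which was not, as the 250 bases before the RefSeq start (GRCm38.p6). Of the 10 adipokines 9 had an entry. Capitals mark the C/EBP-type motif TTNCNNAA and the nuclear receptor hexamer AGGTCA, both searched on either strand, and the TATA box TATAAA on the gene's strand.
Cfd (chr10:79890603-79890852, plus strand): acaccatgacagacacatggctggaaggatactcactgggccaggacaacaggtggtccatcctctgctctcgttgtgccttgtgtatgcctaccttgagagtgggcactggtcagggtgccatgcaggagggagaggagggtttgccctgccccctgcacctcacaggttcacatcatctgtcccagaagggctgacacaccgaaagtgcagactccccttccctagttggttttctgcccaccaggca
Retn (chr8:3655520-3655769, plus strand): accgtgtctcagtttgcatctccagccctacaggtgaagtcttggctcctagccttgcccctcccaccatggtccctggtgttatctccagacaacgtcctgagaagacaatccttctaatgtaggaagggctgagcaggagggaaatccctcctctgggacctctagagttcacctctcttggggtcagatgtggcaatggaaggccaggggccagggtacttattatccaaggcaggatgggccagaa
Adipoq (chr16:23146286-23146535, plus strand): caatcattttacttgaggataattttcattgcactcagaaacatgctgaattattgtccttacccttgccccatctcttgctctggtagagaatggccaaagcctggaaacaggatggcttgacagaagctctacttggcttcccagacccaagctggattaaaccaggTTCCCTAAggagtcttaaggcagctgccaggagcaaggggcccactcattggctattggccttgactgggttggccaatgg
Rbp4 (chr19:38124812-38125061, minus strand): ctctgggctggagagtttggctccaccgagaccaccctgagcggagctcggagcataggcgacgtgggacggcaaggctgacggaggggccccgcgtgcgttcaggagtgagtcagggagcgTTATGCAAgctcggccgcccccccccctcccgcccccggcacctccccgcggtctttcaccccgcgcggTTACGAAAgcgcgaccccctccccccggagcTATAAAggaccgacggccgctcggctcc
Nrg4 (chr9:55283626-55283875, minus strand): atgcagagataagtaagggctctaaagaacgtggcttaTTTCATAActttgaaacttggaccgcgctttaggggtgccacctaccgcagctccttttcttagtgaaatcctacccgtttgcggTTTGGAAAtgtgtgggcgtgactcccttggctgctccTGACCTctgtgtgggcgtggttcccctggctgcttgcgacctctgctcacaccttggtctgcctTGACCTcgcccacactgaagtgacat
Lep (chr6:29059971-29060220, plus strand): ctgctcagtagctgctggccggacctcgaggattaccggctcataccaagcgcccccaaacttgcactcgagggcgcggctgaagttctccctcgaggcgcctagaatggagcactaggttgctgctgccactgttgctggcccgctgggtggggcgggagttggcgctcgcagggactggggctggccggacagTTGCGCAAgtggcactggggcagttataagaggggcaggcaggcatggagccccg
The C/EBP-type motif stood in the windows of Adipoq, Rbp4, Nrg4 and Lep and not in those of Cfd and Retn, and 36.8% of 32851 promoter windows held it. In Lep it is a palindrome 48 to 55 bases before the start. The hexamer AGGTCA was found only in Nrg4, at 2 places, among these 6 windows, and in 14.02% of all windows. The TATA box stood in the Rbp4 window, 23 to 28 bases before the start, and in 7.59% of all windows, and 2 such hexamers spaced by 1 base (direct repeat 1) in none of the adipokine windows and 0.033% of all. Rbp4 has 2 starts in RefSeq, of which the one with the TATA box is printed. No sequence feature was shared by the 5 genes and missing from Lep in these letters.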

How the data were processed

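Total RNA of white adipose tissue was sequenced in 12 libraries, 3 for each of 4 groups. Per the labels and the study's methods, the authors trimmed reads (Trimmomatic 0.36), aligned them to GRCm38 with STAR 2.5.2b, assigned them to Ensembl genes with featureCounts (Subread 1.5.2) and deposited raw read counts per gene without normalization. The labels name polyA RNA and the methods ribosomal depletion, so the sources differ on the library type. Strand setting and multimapping are not stated. Symbols were matched for 99.3% of IDs, and rows without one held 0.0688% of counts.

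Tests used edgeR 4.0.16 in R 4.3.3: TMM, filterByExpr, 1 coefficient per group over 12 libraries, quasi-likelihood F-tests, adjustment over 18702 genes (adjusted p below 0.1, fold at least 1.5). Alternatives were DESeq2 1.42.0, other scalings, filters and fold limits, a replicate block and each library left out, and code was checked on simulated data. SEs are the log2 fold change divided by the root of F. Ratios were tested by 2-sided exact permutation. A floor of 3 counts was 0.118 to 0.187 CPM, for counting error only. The members and lists were chosen with earlier results of these data known. Named were all adipokines, set receptors and regulators, and per list the 3 called genes with the largest change each way without overlap, apart from some not reported here. Annotation was GENCODE M21 (GRCm38). No replicates were duplicates (lowest chi-square per degree of freedom 12.9 over 12 pairs).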

Additional observations from a re-analysis of the deposited data

How the results depend on the processing

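The 5 calls of the averaged genotype difference held under DESeq2, other scalings, both count filters, the replicate block and every left-out library. They fell to 3 with a log2 limit of 1.5, where 9.64% of all genes were called. In the vehicle comparison of KO and flox, 2 adipokines were called in these settings, 1 to 3 without single libraries, and 0 when flox vehicle was reduced to replicate 4, a choice made after seeing the data. In this comparison the log2 limit of 1.5 gave 9 receptors, 1 secretion gene and 9 other secreted proteins, with 16.2% of all genes called. Without single libraries the lists gave 13 to 19, 2 to 5 and 11 to 20.

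Under MTX, KO against flox gave 5 adipokines with DESeq2 (14.8% of all genes), 3 with no filter (2.53%) and 4 with at least 10 counts (9.31%), and 0 to 5 without single libraries. In the same settings the lists gave 8, 2 and 2 receptors (0 to 11), 7, 1 and 5 secretion genes (0 to 8), and 9, 6 and 6 other secreted proteins (0 to 11). For MTX in flox, DESeq2 called 1 adipokine, with 25.8% of all genes called (0 to 1 adipokines without single libraries). The share of all genes called there was 23.4% with library-size scaling, 15.3% with at least 10 counts and 14.8% with the replicate block. It was 12.2% with the libraries of the comparison alone and 14.9% with the log2 limit. Receptors were 7 with the replicate block, 6 with these libraries alone, 6 with the log2 limit and 0 reduced (6 to 14). Secretion genes were 4 with DESeq2, 1 with library-size scaling and 0 with at least 10 counts, the block, these libraries alone, the log2 limit or reduced (0 to 3). Other secreted proteins were 2 with at least 10 counts, 2 with the block, 0 alone, 3 with the log2 limit and 0 reduced (1 to 13). For MTX in KO, other secreted proteins were 3 with DESeq2 (0 to 1), where 1.5% of all genes were called. In the interaction, receptors were 3 with DESeq2, 1 with RLE factors and 1 with no filter (0 to 3), and other secreted proteins 5 with DESeq2 and 2 with no filter (0 to 4). Of all genes 6.67%, 1.27% and 1.36% were called with DESeq2, RLE factors and no filter. The replicate block gave 1 adipokine (Nrg4) for MTX averaged over genotypes, with 6.18% of all genes called.

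The log2 fold change of Lep under vehicle turned to -0.60 when flox vehicle was reduced and ranged from -0.19 to 0.71 without single libraries. Against the median of the adipocyte markers, the vehicle log2 differences were -0.57 for Rbp4, 0.82 for Rarres2 and -0.43 for Nrg4. Same-numbered libraries had a median correlation of deviations of 0.0353 (-0.273 to 0.254 over 12 pairs). With groups of 3 this cannot tell whether a number marks a shared cage, litter or batch. With the replicate block 14.8% of all genes instead of 24.2% were called for MTX in flox, and 0% instead of 1% in the interaction. Library-size scaling moved the median of all genes from -0.04 to 0.12 for KO against flox under MTX and from 0.05 to -0.15 for MTX in flox. Where no cause is given, the cause was not tested. Fgf21, at 1 to 32 counts, was limited by depth.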
